A study of Mus musculus with 18 samples.

Results

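Toll-like receptors are membrane proteins with which macrophages sense molecules of microbes. The 10 genes described here, Tlr1, Tlr2, Tlr3, Tlr4, Tlr6, Tlr7, Tlr8, Tlr9, Tlr11 and Tlr13, were taken by name from the table of expected counts, with no measured value in the choice, and are 10 of the 12 Tlr symbols among its 21954 genes. The other two, Tlr5 and Tlr12, are given beside them. All 10 passed the filter on low counts; Tlr11 passed through the IFN libraries, where it reached 10 counts in 6 of 6, against 2 of the 12 other libraries.

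RNA came from mouse macrophages grown from bone marrow. One genotype was wild type (WT, titled Control), the other a macrophage-specific knockout (KO) of L13a, a ribosomal protein whose gene is Rpl13a. Cells of each genotype were left without treatment or were given IFN or IL4, which the labels class as an M1 and an M2 cytokine; they name neither the type of interferon, nor dose, time, strain or age, nor what drives the knockout. Each of the 6 groups held 3 libraries, 18 in all, numbered 1 to 3 (untreated), 4 to 6 (IFN) and 7 to 9 (IL4) in both genotypes. Whether the 3 libraries of one group are separate animals, separate cultures or repeats is not stated, so the p-values measure the spread between libraries, which may be technical.

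Depth, the sum of expected counts over genes, lay between 18098711 and 28477342 per library. Rpl13a stood at 1062 to 1626 TPM (a level scaled for transcript length and depth) in the WT libraries and at 354.6 to 1188 TPM in the KO libraries; KO library 9 lay inside the WT range, and the untreated groups differed by -1.48 on the log2 scale (adjusted p = 0.256). Lyz2 (a lysozyme of myeloid cells) stood at 4483 to 19810 TPM against 1.03 to 11.1 TPM. All 12 macrophage markers (among them Adgre1, Csf1r and Cd68) were above 1 TPM in every library, with summed levels of 9070 to 18130 TPM. Of the B cell list (31.9 to 142.2 TPM summed), Ms4a1 and Pax5 stayed at or under 0.15 TPM, while Cd79b held 1.56 to 14.7 TPM and Blnk 21.8 to 135.6 TPM. Of the plasmacytoid dendritic cell list (251.9 to 1782 TPM summed), Siglech stayed at or under 0.42 TPM and Klk1 at 0, while Tcf4 held 13.2 to 41.5 TPM and Bst2 229.4 to 1760 TPM. Summed T and NK cell markers reached at most 5.22 TPM, mast cell and basophil markers 2.48 TPM and neutrophil markers 14.02 TPM. Fibroblast markers summed to 354.8 to 376.3 TPM in untreated WT, 54.4 to 189.1 TPM in untreated KO, 41.4 to 79.1 TPM in WT and 16.9 to 314.0 TPM in KO after IFN, and 91.6 to 199.5 TPM in WT and 74.3 to 449.5 TPM in KO after IL4; in each KO group the library numbered 3, 6 or 9 held the most. Their part in the receptor results was not tested. Each count was repeated without those libraries, but in WT this cannot separate fibroblast markers from treatment. There every untreated library held more of them than every cytokine library. Y-linked transcripts summed to 70.3 to 116.5 TPM in WT libraries 1, 4, 5, 7 and 8, and to at most 0.69 TPM in the other WT and all KO libraries.

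As background, Toll-like receptors of the cell surface bind lipids and proteins of microbes: Tlr2 pairs with Tlr1 or Tlr6 to sense lipopeptides, and Tlr4 senses lipopolysaccharide together with the proteins Ly96 and Cd14. Another set works inside endosomes, where the chaperone Unc93b1 brings it: Tlr3 senses paired-strand RNA, Tlr7 and Tlr8 belong to the sensors of unpaired RNA, Tlr9 senses unmethylated CpG DNA, Tlr13 senses bacterial ribosomal RNA, and Tlr11 and Tlr12 sense profilin of protozoa such as Toxoplasma. Adaptors with a TIR domain, Myd88 for most receptors and Ticam1 for Tlr3 and Tlr4, carry the signal to NF-kB and interferon regulatory factors.

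After IFN, 6 receptors rose in WT and the same 6 rose in KO: Tlr1, Tlr3, Tlr4, Tlr6, Tlr9 and Tlr11. Tlr2 fell in both genotypes, while Tlr7, Tlr8 and Tlr13 did not pass the test. Tlr11 passed the filter only through the IFN libraries, so its difference was built in. Of the 9 others, 5 rose in WT, where 11.1% of all 12514 tested genes did, and 1 fell, where 7.55% did. In KO again 5 of 9 rose, where 12.6% of all genes did, and 1 fell, where 8.93% did. The median log2 fold change of these 9 was 0.65 in WT and 0.88 in KO, the value of Tlr4 in each. The median of all genes was -0.02 and -0.03. Without the libraries numbered 3, 6 and 9, 4 receptors remained past the threshold in WT (Tlr2, Tlr3, Tlr9 and Tlr11). In KO 6 remained, where Tlr2 was lost. Both counts include Tlr11.

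After IL4 fewer receptors passed the test. Tlr2 and Tlr9 fell in both genotypes. Tlr11 rose in both, from almost no reads to a few, and Tlr4 rose in KO only just past the threshold. In WT that was 1 receptor higher against 4.96% of all genes and 2 lower against 3.53%. In KO it was 2 higher against 5.35% and 2 lower against 4.12%. Both counts of higher receptors include Tlr11, which passed the filter only through the IFN libraries. With only the libraries of the groups compared, Tlr11 was not tested. Apart from Tlr11, no receptor was higher in WT and only Tlr4 was higher in KO. The median log2 fold change of the 10 receptors was -0.22 in WT and -0.14 in KO, where the median of all genes was -0.01 and 0.01. Without Tlr11 the median was -0.49 in WT and -0.36 in KO, the value of Tlr7 in each. Without the libraries numbered 3, 6 and 9, Tlr2 alone was called in each genotype. The IFN and IL4 comparisons of a genotype share their untreated libraries. In bulk RNA of this kind, fewer cells of a type and less RNA per cell cannot be told apart.

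**Figure D1:**
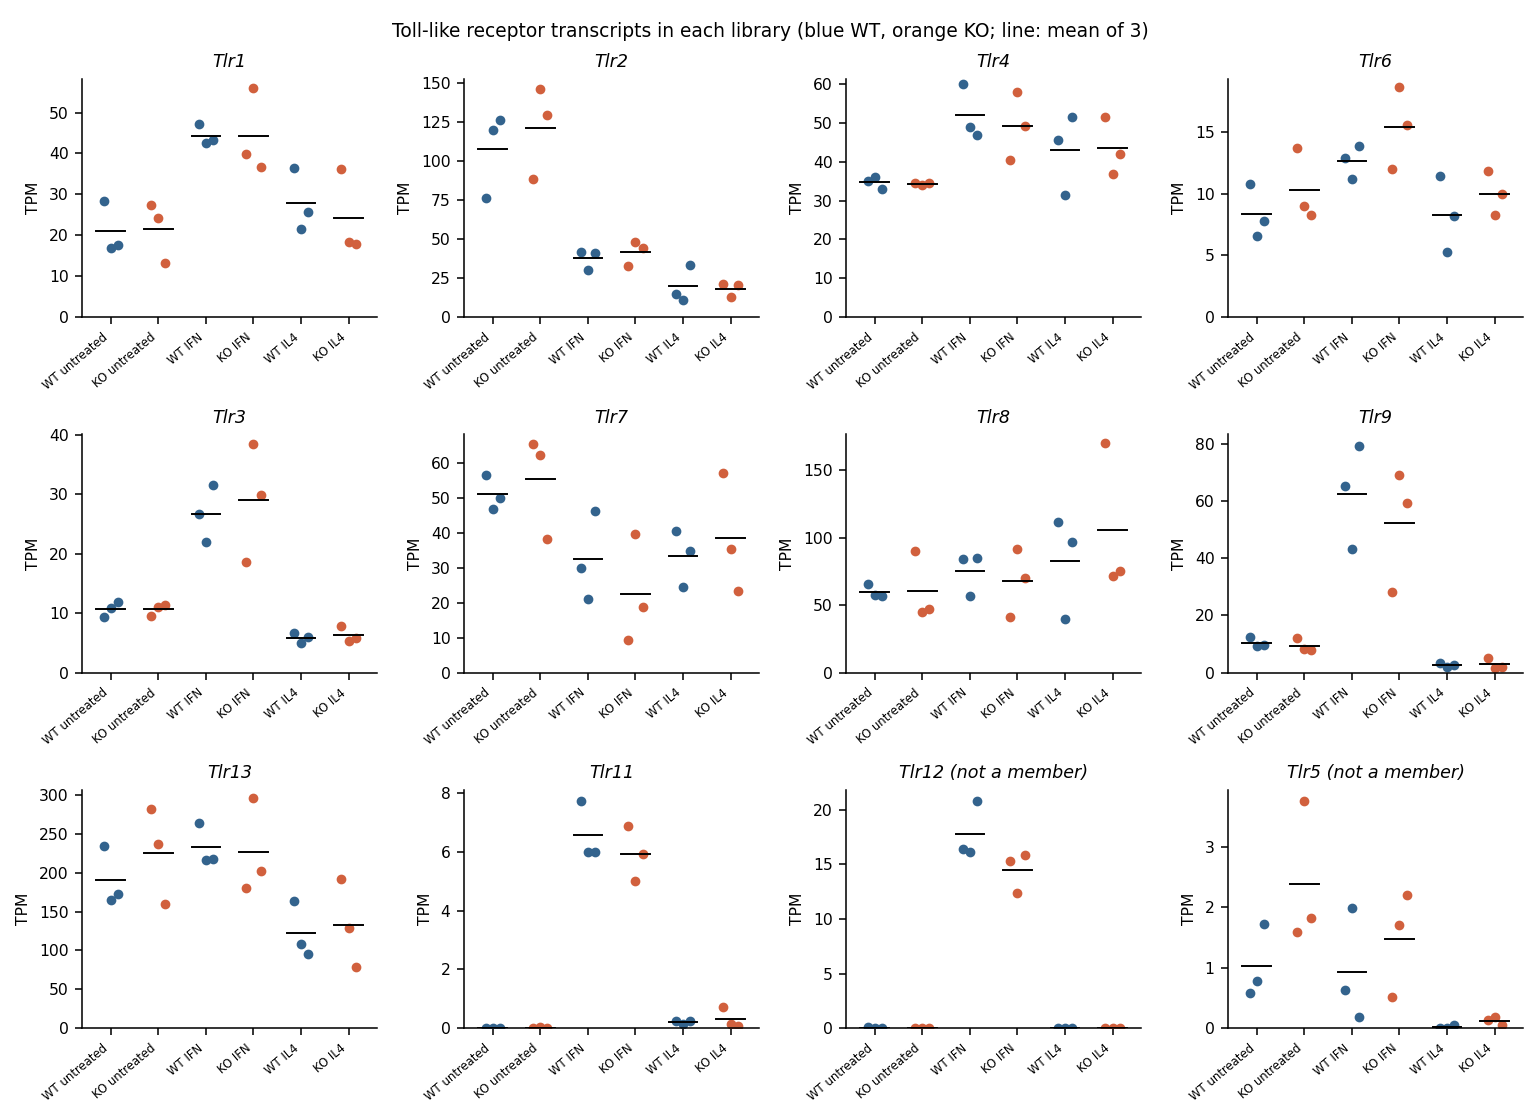
Level of each receptor in TPM (y axis, from 0, own scale per panel) in each of the 18 libraries, by group (x axis). Points are libraries, blue for WT and orange for KO, and the line is the mean of 3. Tlr9 runs from 7.92 to 12.5 TPM untreated, 28.1 to 79.5 TPM after IFN and 1.62 to 5.02 TPM after IL4.

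Levels between receptors are compared in TPM. Tlr13 was the most abundant in all 6 groups, with means from 122.7 ± 35.9 TPM (SD, n = 3; WT, IL4) to 232.4 ± 26.7 TPM (WT, IFN). After IL4 its range overlapped that of Tlr8 in both genotypes. Its 3 untreated WT libraries held 234.5, 164.4 and 172.8 TPM, all above every library of the next receptor, Tlr2 (107.2 ± 27.2 TPM). Behind these in untreated WT came Tlr8 (59.97 ± 4.90 TPM), Tlr7 (51.1 ± 5.02 TPM), Tlr4 (34.8 ± 1.62 TPM) and Tlr1 (21.0 ± 6.44 TPM). Tlr8 and Tlr7 overlapped, and the steps from Tlr7 to Tlr4 and from Tlr4 to Tlr1 did not. Tlr3 (10.7 ± 1.34 TPM), Tlr9 (10.52 ± 1.70 TPM) and Tlr6 (8.36 ± 2.15 TPM) overlapped with each other in that order, and Tlr11 had 0 counts in all 3 libraries. The untreated KO order of the 9 receptors above Tlr11 was the same except that Tlr6 (10.3 ± 2.93 TPM) and Tlr9 (9.40 ± 2.22 TPM) changed places, within their spread.

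The cytokines reordered the family. Among the 12 Tlr genes Tlr2 went from rank 2 in untreated cells to rank 6 after IFN and after IL4, in both genotypes. Tlr9 went from rank 8 in untreated WT to rank 3 after IFN and rank 9 after IL4. The summed level of the 10 receptors was 494.1 ± 30.9 TPM in untreated WT, 582.8 ± 74.5 TPM after IFN and 346.1 ± 93.0 TPM after IL4. In KO the sums were 549.3 ± 89.5, 553.6 ± 156.2 and 382.6 ± 149.6 TPM. The endosomal receptors Tlr3, Tlr7, Tlr8, Tlr9, Tlr11 and Tlr13 made up 61.7 to 71.6% of that sum in untreated WT and 73.4 to 76.2% after IFN, with no overlap. In KO the shares were 58.8 to 73.6% and 69.5 to 74.9%, which overlap.

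Among the surface receptors of the 10, Tlr2 (chr3:83836272-83841767, minus strand; all positions are GRCm38, GENCODE vM21) lost the most. Untreated WT libraries held 76.0, 119.9 and 125.8 TPM, IFN libraries 41.8, 29.9 and 41.1 TPM, and IL4 libraries 15.02, 11.1 and 33.3 TPM. The KO libraries held 88.6, 145.6 and 129.2 TPM untreated, 32.5, 47.8 and 43.8 TPM with IFN, and 21.3, 12.98 and 20.2 TPM with IL4. Every cytokine library lay below every untreated library of its genotype. The log2 fold change after IL4 was -2.31 (SE 0.37, adjusted p = 0.000811, edgeR's quasi-likelihood test with Benjamini-Hochberg adjustment, as for all adjusted p-values below) in WT and -2.53 (SE 0.37, adjusted p = 0.000448) in KO. After IFN it was -1.43 (SE 0.36, adjusted p = 0.00993) in WT and -1.18 (SE 0.35, adjusted p = 0.0253) in KO. The IFN call was lost without WT IFN library 5 (adjusted p = 0.0517), and in KO without untreated library 2 (0.08) or 3 (0.061) or IFN library 4 (0.087) or 6 (0.056), with the direction kept each time.

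The partners of Tlr2 went the other way after IFN. Tlr1 (chr5:64924679-64933563, minus strand) stood at 28.4, 16.9 and 17.6 TPM in untreated WT and 47.2, 42.5 and 43.3 TPM with IFN. In KO it stood at 27.3, 24.2 and 13.1 TPM and at 39.8, 56.1 and 36.8 TPM. The groups did not overlap, and the log2 fold change was 1.14 (SE 0.28, adjusted p = 0.00795) in WT and 1.46 (SE 0.28, adjusted p = 0.00132) in KO. Tlr1 after IL4 was at 0.50 (adjusted p = 0.327) and 0.39 (adjusted p = 0.463).

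Tlr6 (chr5:64952031-64960097, minus strand), the other partner, lies 18467 bases from Tlr1. It stood at 10.7, 6.55 and 7.80 TPM in untreated WT and 12.9, 11.2 and 13.9 TPM with IFN, and at 13.7, 8.99 and 8.27 TPM and 11.97, 18.6 and 15.5 TPM in KO, where the TPM ranges overlap. Its CPM (counts scaled by the TMM library size) did not overlap between untreated and IFN libraries, and the log2 fold change was 0.84 (SE 0.22, adjusted p = 0.0147) in WT and 1.25 (SE 0.22, adjusted p = 0.000781) in KO. The call in WT was lost without untreated library 2 (adjusted p = 0.0552) or IFN library 6 (0.0694), and on log2 of TPM plus 1 with limma it was lost in both genotypes (0.16 and 0.117). After IL4 Tlr6 was at 0.06 (adjusted p = 0.933) and 0.08 (adjusted p = 0.891). Of the stretches of 75 bases in the transcripts of Tlr1, 10.6% also occur elsewhere, in Tlr6 and 3 other genes, and of those in Tlr6 9.25% occur in Tlr1. The split of reads from shared stretches between the 2 genes is an estimate. Expected counts of both were not whole in all 18 libraries. The same held for Tlr4 and Tlr13, which share 0 such stretches with other genes, so this does not measure the split.

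The lipopolysaccharide receptor Tlr4 (chr4:66827584-66930284, plus strand) had the smallest errors. Untreated libraries held 35.1, 36.2 and 33.0 TPM in WT and 34.6, 34.1 and 34.5 TPM in KO. With IFN they held 60.01, 48.9 and 47.1 TPM in WT and 40.5, 58.0 and 49.4 TPM in KO, all above the untreated ones. Its log2 fold change after IFN was 0.65 (SE 0.16, adjusted p = 0.00951) in WT and 0.88 (SE 0.16, adjusted p = 0.00102) in KO. After IL4 it was 0.44 (SE 0.16, adjusted p = 0.121) in WT and 0.54 (SE 0.16, adjusted p = 0.0479) in KO. The KO call was lost without any one of untreated libraries 1 (0.134), 2 (0.13) or 3 (0.0679) or IL4 libraries 7 (0.129), 8 (0.0523) or 9 (0.0928), while in WT Tlr4 passed the test without IL4 library 8 (0.0432).

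Among the endosomal sensors Tlr9 (chr9:106222598-106226883, plus strand) moved in opposite directions with the 2 cytokines and, of the 9 receptors other than Tlr11, rose most with IFN. In WT it stood at 12.5, 9.32 and 9.78 TPM untreated, 65.2, 43.2 and 79.5 TPM with IFN and 3.41, 1.84 and 2.78 TPM with IL4. In KO it stood at 11.96, 8.33 and 7.92 TPM, then 28.1, 69.2 and 59.5 TPM, and 5.02, 1.62 and 2.09 TPM. The 3 treatments did not overlap in either genotype. The log2 fold change after IFN was 2.69 (SE 0.37, adjusted p = 7.95e-05), a 6.47-fold rise, in WT and 2.85 (SE 0.37, adjusted p = 4.5e-05), a 7.20-fold rise, in KO. After IL4 it was -1.85 (SE 0.40, adjusted p = 0.00804) in WT and -1.47 (SE 0.40, adjusted p = 0.0292) in KO. The IL4 call in KO was lost without untreated library 1 (0.0897) or IL4 library 8 (0.106) or 9 (0.105).

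Tlr3 (chr8:45395665-45411080, minus strand) followed with a rise after IFN. It stood at 9.27, 10.9 and 11.9 TPM in untreated WT and 26.7, 22.0 and 31.5 TPM with IFN. In KO it stood at 9.58, 11.1 and 11.3 TPM and at 18.6, 38.4 and 29.8 TPM, so that IFN and untreated libraries were apart in both genotypes. The change was 1.53 on the log2 scale (SE 0.25, adjusted p = 0.000466) in WT and 1.90 (SE 0.26, adjusted p = 5.86e-05) in KO. After IL4, 4.91 to 6.58 TPM in WT and 5.26 to 7.78 TPM in KO lay below all untreated libraries, but the log2 fold changes of -0.68 (adjusted p = 0.141) and -0.51 (adjusted p = 0.279) did not pass the test. Of the 75-base stretches of Tlr3, 4.28% lie in the antisense gene Gm45542, and as the strand setting of the counting is not stated, reads of the 2 cannot be told apart there.

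The X-linked sensors Tlr7 (chrX:167304929-167330558, minus strand), Tlr8 (chrX:167242696-167264329, minus strand) and Tlr13 (chrX:106143204-106160493, plus strand) passed the test in none of the 4 cytokine comparisons. Tlr8, which lies 40599 bases from Tlr7, ranged widely after IL4, with 111.4, 39.5 and 96.5 TPM in WT and 170.1, 71.3 and 75.4 TPM in KO. Its log2 fold change there was 0.55 (adjusted p = 0.442) in WT and 0.99 (adjusted p = 0.111) in KO, and after IFN 0.44 (adjusted p = 0.46) and 0.63 (adjusted p = 0.257). Tlr13 stood at 163.5, 108.7 and 95.9 TPM in WT and 191.8, 128.8 and 78.5 TPM in KO after IL4, with log2 fold changes of -0.51 (adjusted p = 0.31) and -0.54 (adjusted p = 0.265). After IFN Tlr13 was at 0.39 in both genotypes (adjusted p = 0.372 and 0.362).

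Tlr7 showed the largest spread among IFN libraries. The WT libraries 4, 5 and 6 held 29.9, 21.2 and 46.1 TPM, where untreated WT held 46.7 to 56.6 TPM, and the KO libraries held 9.38, 39.8 and 18.7 TPM, where untreated KO held 38.3 to 65.3 TPM. Of the 6 IFN libraries 2 lay at the edge of the untreated range and the other 4 below it. The log2 fold change was -0.62 (SE 0.43, adjusted p = 0.361) in WT and -0.90 (SE 0.43, adjusted p = 0.16) in KO. Without KO IFN library 5 the KO value was -1.63 with an adjusted p of 0.0127, so that 1 library decides whether Tlr7 passes; limma on log2 of TPM plus 1 also called it, at -1.44 (adjusted p = 0.0175). After IL4 it was at -0.49 (adjusted p = 0.581) and -0.36 (adjusted p = 0.703).

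**Figure D2:**
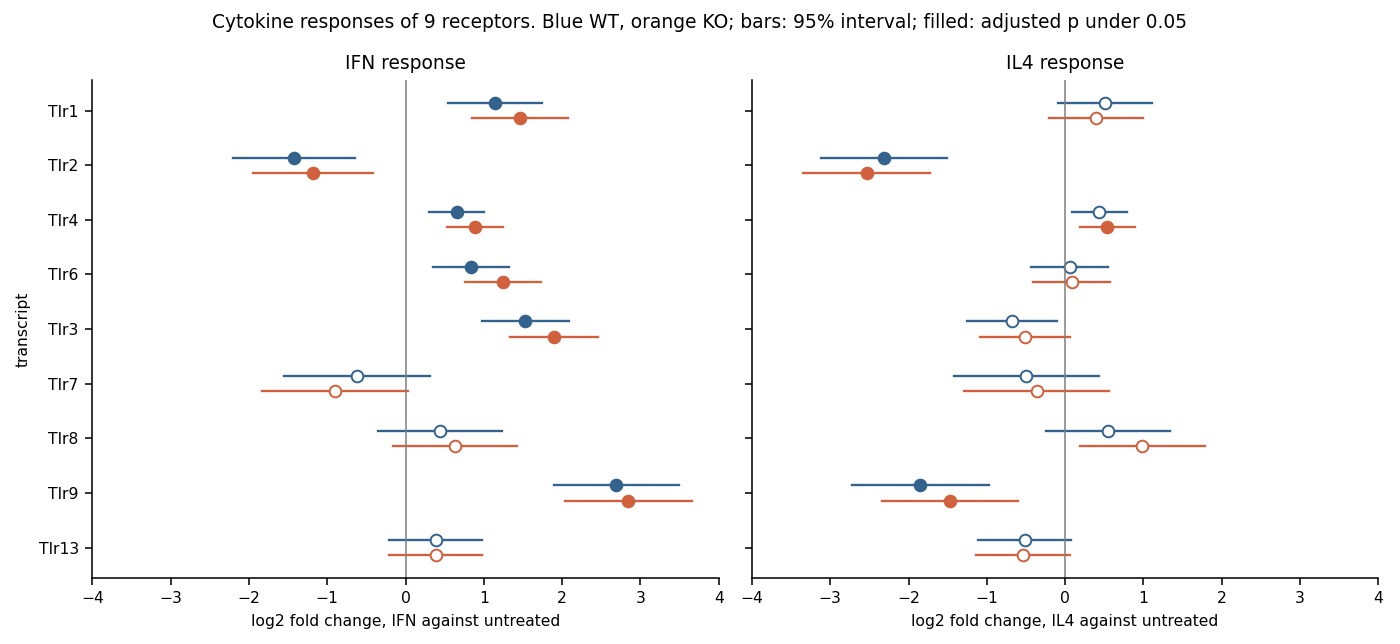
Log2 fold change of 9 receptors after IFN (left) and IL4 (right) against untreated cells of the same genotype (x axis), blue for WT and orange for KO; bars are 95% intervals from the fit on all 18 libraries and filled points passed an adjusted p of 0.05. Tlr2 is negative in all 4 comparisons and Tlr9 is positive after IFN and negative after IL4; Tlr11 is left out because it had 0 to 2 counts in the untreated groups.

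Tlr11 (chr14:50357914-50363663, plus strand) went from near 0 to a low level with IFN. It had 0 counts in the 3 untreated WT libraries together and 2 in the untreated KO libraries. With IFN it had 271, 227 and 217 counts in WT (7.71, 5.98 and 5.98 TPM) and 280, 201 and 203 counts in KO (6.89, 5.01 and 5.91 TPM). All 6 IFN libraries lay far above the other 12. Against a floor of 3 counts over the untreated group, Tlr11 was at least 345.0-fold higher after IFN in WT. The ratio in KO was 497.9 (95% counting interval 137.3 to 4120). No p-value is given, since the filter let Tlr11 in through these libraries.

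IL4 gave Tlr11 9, 5 and 11 counts in WT and 32, 6 and 3 counts in KO, which is at most 0.73 TPM. Against the floor this was at least 10.4-fold higher in WT (adjusted p = 0.0477), and the ratio in KO was 25.0 (95% counting interval 6.48 to 213.1, adjusted p = 0.0274). The intervals cover counting error only. In WT the call was lost on leaving out any one of untreated libraries 1 (0.109), 2 (0.102) and 3 (0.119) and IL4 libraries 7 (0.101), 8 (0.0823) and 9 (0.126). In KO it was lost without untreated library 1 (0.0822), 2 (0.0682) or 3 (0.0752) or IL4 library 7 (0.156), which held 32 of its 41 counts.

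Tlr12, which senses profilin as Tlr11 does, behaved in the same way after IFN, although it is not one of the 10. It held 0.08, 0 and 0 TPM in untreated WT and 16.4, 16.1 and 20.8 TPM with IFN. In KO it held 0.02, 0 and 0 TPM and 15.3, 12.3 and 15.8 TPM, a ratio of 2394 (95% counting interval 429.0 to 94600). It too passed the filter only through the IFN libraries, with 10 counts in 6 of 6 against 0 of the 12 others. After IL4 it had 2 counts in WT and 3 in KO. Tlr5, the receptor for flagellin, fell after IL4, from 128 counts over the untreated group to 2 in WT (a 51.1-fold fall, 95% counting interval 13.9 to 426.8, adjusted p = 0.0146), a call lost without untreated library 3 (0.0631) or IL4 library 7 (0.0563) or 8 (0.0598). Its KO counts went from 257 to 15 (log2 fold change -3.83, SE 0.79, adjusted p = 0.00455), while after IFN its values were 0.07 (adjusted p = 0.961) and -0.54 (adjusted p = 0.527).

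Promoter sequence was read from RefSeq (GRCm38.p6) for 8 of the 10 receptors, in windows of 250 bases before to 50 after a start site. The letters of 3 motifs were read on both strands: an interferon-stimulated element core (GAAANNGAAA), the STAT6 spacing (TTCNNNNGAA) and the PU.1 core (GAGGAA, PU.1 being a myeloid factor). The first was found in Tlr11 and Tlr6, and in 3.99% of 27025 genes with a promoter in the table (3.44% of 32851 windows, since a gene can have several). The STAT6 spacing was found in Tlr8 (8.01% of genes, 6.95% of windows) and the PU.1 letters in Tlr1, Tlr8, Tlr9, Tlr11 and Tlr13 (31.3% of genes, 28.3% of windows). In Tlr8 the STAT6 and PU.1 letters overlap. A match of letters is a description and says nothing of binding.

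The 250 bases before the start of 3 receptors that rose with IFN are shown, those of Tlr11 and Tlr6 because they hold the interferon-stimulated letters, that of Tlr9 because it has the largest change with IFN among the 9 receptors other than Tlr11. They cover chr14:50357664-50357913 (Tlr11, plus strand), chr5:64959167-64959416 (Tlr6, minus strand, inside the gene, before the later of its 2 RefSeq start sites) and chr9:106222348-106222597 (Tlr9, plus strand). Capitals mark the interferon-stimulated core and the PU.1 core. In Tlr11 the PU.1 letters stand at -133 to -128 and GAAACTGAAA at -122 to -113 from the start, and in Tlr6 2 overlapping cores on the other strand run from -116 to -101. In Tlr9 the PU.1 letters stand at -112 to -107. Further PU.1 letters of Tlr11 and Tlr9 lie after the start and outside the bases shown.
Tlr11: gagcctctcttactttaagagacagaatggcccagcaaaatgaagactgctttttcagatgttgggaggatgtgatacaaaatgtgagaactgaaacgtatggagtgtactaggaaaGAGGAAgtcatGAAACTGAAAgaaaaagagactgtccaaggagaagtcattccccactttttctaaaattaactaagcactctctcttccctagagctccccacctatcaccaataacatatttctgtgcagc
Tlr6: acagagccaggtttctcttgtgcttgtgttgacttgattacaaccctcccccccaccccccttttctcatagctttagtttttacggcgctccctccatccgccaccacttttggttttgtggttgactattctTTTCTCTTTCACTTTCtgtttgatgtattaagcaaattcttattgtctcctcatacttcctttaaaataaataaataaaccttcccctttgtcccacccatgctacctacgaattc
Tlr9: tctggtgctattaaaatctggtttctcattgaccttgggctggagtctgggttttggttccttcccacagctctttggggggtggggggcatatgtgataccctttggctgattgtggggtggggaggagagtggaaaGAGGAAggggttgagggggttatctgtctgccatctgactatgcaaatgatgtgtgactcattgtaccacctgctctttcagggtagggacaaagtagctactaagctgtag

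The IFN libraries of a group differed from each other, and in CPM 9 of the 10 receptors were highest in the same libraries. Irf7, an interferon-induced transcription factor that acts below Tlr7 and Tlr9, stood at 358.5, 482.7 and 1951 CPM in WT libraries 4, 5 and 6 and at 239.9, 1613 and 915.4 CPM in KO libraries 4, 5 and 6. Tlr3 stood at 55.9, 45.2 and 82.7 CPM in WT and 46.7, 91.4 and 65.0 CPM in KO. Tlr9 stood at 125.8, 88.4 and 189.1 CPM in WT and 64.4, 156.7 and 132.2 CPM in KO. In both genotypes the library with the most Irf7 (WT 6, KO 5) also held the most CPM of every receptor except Tlr11, surface receptors included. Tlr4 stood at 132.2 CPM in WT 6 and 152.3 CPM in KO 5. The lead of WT 6 over WT 4 was narrow for Tlr4 (131.0 CPM in WT 4) and Tlr13 (608.2 against 597.7 CPM). The share of all genes highest in WT 6 and KO 5 was not counted, so this is not shown to be particular to the receptors. In TPM KO library 5 was again highest for these 9, and WT library 6 for Tlr3, Tlr6, Tlr7, Tlr8 and Tlr9 but not for Tlr1, Tlr2, Tlr4 and Tlr13.

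Tlr7 in the same libraries stood at 51.2, 47.3 and 110.1 CPM in WT and 23.5, 96.1 and 41.4 CPM in KO. Its 2 highest IFN libraries were therefore those with the most Irf7. WT library 6 is the one IFN library of its genotype whose Y-linked transcripts summed to under 1 TPM, and all 3 KO libraries did so. Bst2, an interferon-induced surface protein also used as a marker of plasmacytoid dendritic cells, stood at 785.5 CPM in WT library 6 and 701.8 CPM in KO library 5, against 281.1 to 480.2 CPM in the other 4, while Siglech stayed at or under 0.42 TPM everywhere. The spread has no label, dose or time attached to it and its source was not tested.

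**Figure D3:**
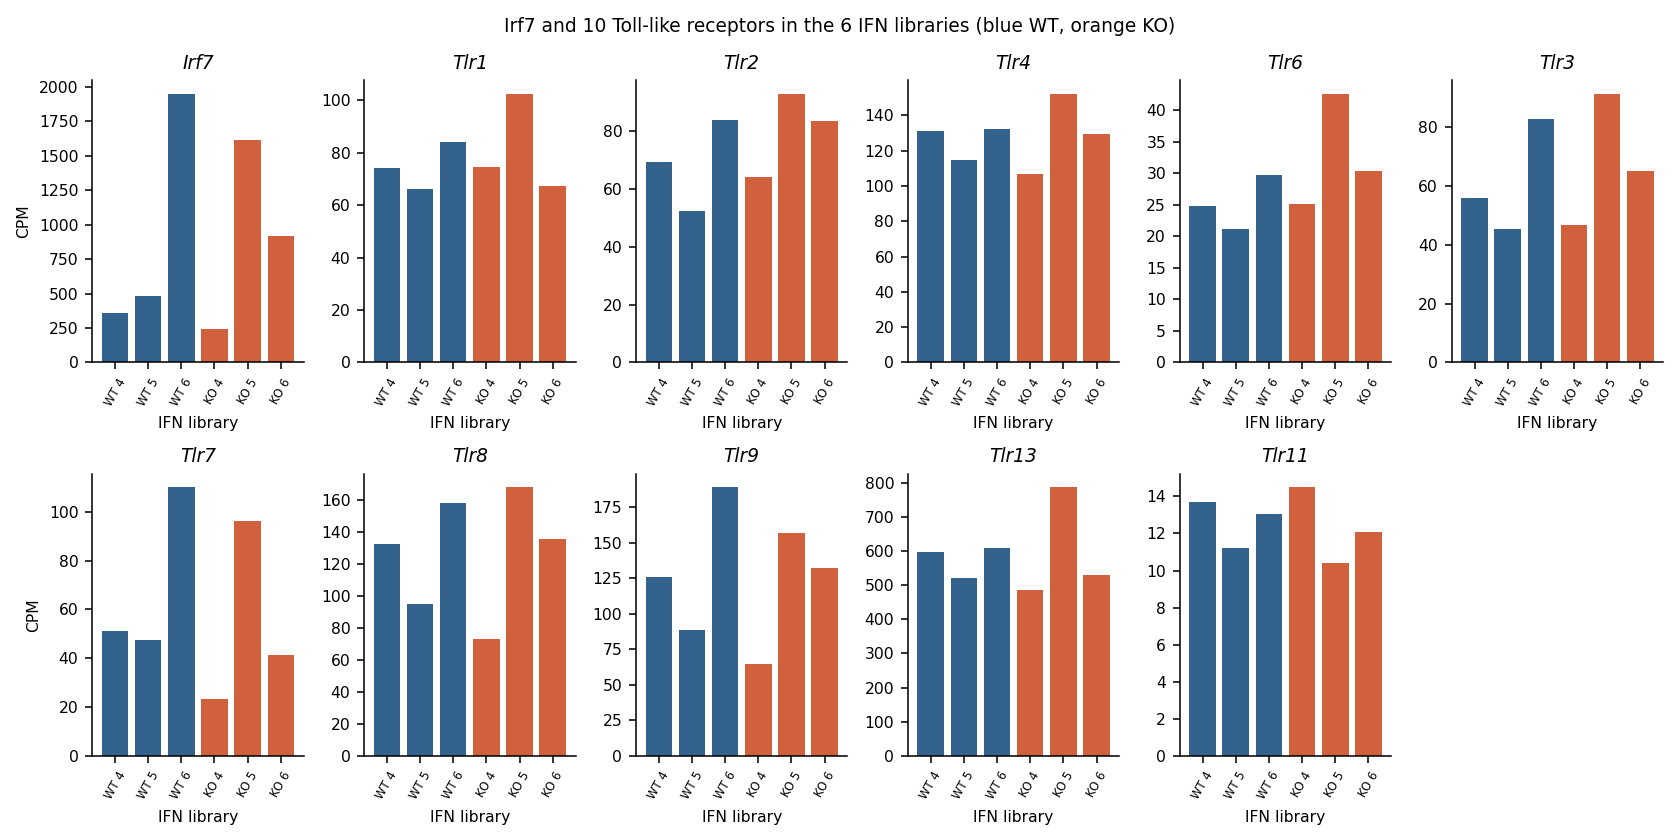
CPM of Irf7 and the 10 receptors (y axes, from 0, own scale per panel) in the 6 IFN libraries (x axes), blue for WT and orange for KO; each bar is 1 library. WT library 6 and KO library 5 are the highest of their genotype in every panel except that of Tlr11, with Tlr7 at 110.1 and 96.1 CPM against 23.5 to 51.2 CPM in the other 4. The share of all genes highest in these libraries was not counted.

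Knockout and wild type were then compared within each treatment. No receptor passed the test in untreated cells, where 0.0799% of all genes did, nor after IFN or after IL4, where 0.0639% of all genes did in each case. The number of receptors with an unadjusted p under 0.05 was 0 in each of these comparisons by edgeR, against 944, 724 and 308 of the 12514 genes, and DESeq2 and limma also called 0. With the library number as a replicate block, 0 receptors were called, while the count over all genes went from 8 to 24 after IFN and from 8 to 27 after IL4. Ranges in CPM were apart for 1 of 10 receptors in untreated cells, against 14.1% of all genes, for 0 after IFN, against 9.33%, and for 0 after IL4, against 5.04%. The one was Tlr4, at 75.1, 84.9 and 80.2 CPM in WT and 67.0, 68.7 and 75.01 CPM in KO, a log2 difference of -0.19 (SE 0.16, adjusted p = 0.85).

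The intervals of these differences were as wide as the spread allowed. For the 9 receptors other than Tlr11, log2 differences of KO against WT lay between -0.34 and 0.06 in untreated cells, between -0.37 and 0.38 after IFN and between -0.30 and 0.22 after IL4. Their 95% intervals reached from -1.13 to 0.83, from -1.31 to 1.00 and from -1.03 to 1.00. These differences and intervals come from the fit without a replicate block. That holds also after IFN and IL4, where the library numbers were taken to pair KO and WT, and no blocked interval is given. Tlr4 had the narrowest, -0.54 to 0.17 untreated, -0.31 to 0.39 after IFN and -0.44 to 0.27 after IL4, and Tlr7 the widest after IFN, -1.31 to 0.57. Tlr6 after IFN had the lowest p of the family in these comparisons, with a log2 difference of 0.38 (SE 0.22, 95% interval -0.10 to 0.86, adjusted p = 0.902). Tlr11 after IFN differed by -0.04 (95% interval -0.62 to 0.55, adjusted p = 1.0), with 715 counts in WT and 684 in KO.

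The responses themselves did not differ between genotypes past the threshold. The test of the difference of IFN responses called 0 receptors and 0.0% of all genes, and that of IL4 responses likewise 0 and 0.0%. Both tests used the fit without a replicate block. In simulated data the test of IFN responses recovered 5.71% of 2-fold differences, so 0 calls alone does not exclude differences of that size. For the 9 receptors other than Tlr11 the difference of log2 responses, KO minus WT, lay between -0.28 and 0.41 for IFN (95% intervals from -1.60 to 1.32) and between -0.22 and 0.44 for IL4 (from -1.31 to 1.61). Unadjusted p-values were at least 0.213 and 0.405, so 0 receptors had one under 0.05 by edgeR, against 617 and 249 of all genes. DESeq2 and limma called 0 receptors as well. For the IFN responses DESeq2 gave an adjusted p for 8 receptors only. It gave none for Tlr11 and for Tlr6, the receptor with the p of 0.213 by edgeR. A fit with a covariate for Y-linked transcripts, of interest for the X-linked Tlr7, Tlr8 and Tlr13, called 0 receptors in each genotype comparison, like the main fit. No KO library held these transcripts, so the covariate rests on the WT libraries and is partly confounded with genotype. The sign of several uncalled differences changed with it, among them Tlr2 after IFN (0.23 to -0.38) and Tlr7 after IL4 (0.05 to -0.24).

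**Figure D4:**
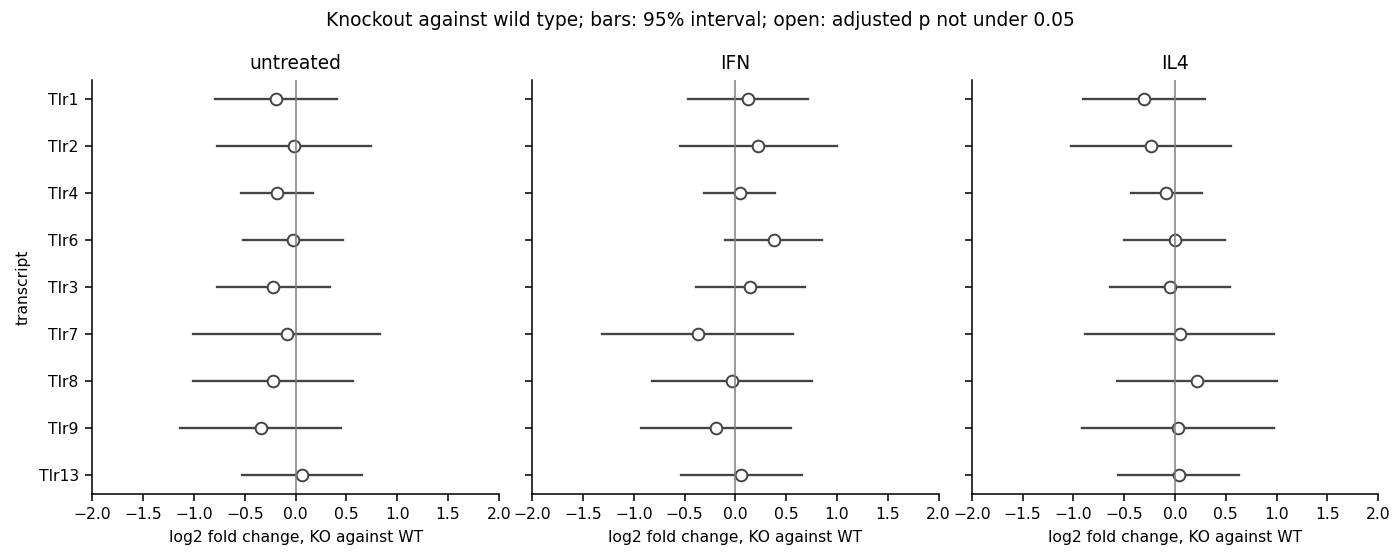
Log2 fold change of KO against WT (x axis) for 9 receptors in untreated, IFN and IL4 cells. Bars are 95% intervals from the fit on all 18 libraries without a replicate block, and open points did not pass an adjusted p of 0.05. Every interval includes 0, and that of Tlr4 in untreated cells runs from -0.54 to 0.17.

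Genes that serve the receptors were read from 7 lists of 92 genes, 86 of them tested. After IFN 25 rose and 6 fell in WT (36.0% of those tested), where 11.1% of all genes rose and 7.55% fell. In KO 25 rose and 10 fell (40.7%), where 12.6% and 8.93% of all genes did. After IL4 7 rose and 8 fell in WT (17.4%), where 4.96% and 3.53% of all genes did. In KO 9 rose and 13 fell (25.6%), where 5.35% and 4.12% of all genes did. The same shares of all genes stand behind the count of each list that follows. Between genotypes edgeR called 0 of them in untreated, IFN and IL4 cells, with 7, 3 and 2 at an unadjusted p under 0.05, and 0 in each difference of responses, with 1 and 1. The median log2 fold change of the 86 was 0.23 after IFN in both genotypes, and -0.15 in WT and -0.17 in KO after IL4.

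Of 15 tested co-receptors and proteins that handle ligands, 4 rose and 3 fell after IFN in WT, and 6 rose and 2 fell in KO. Cd180, a relative of Tlr4 on the cell surface, rose from 266.8 ± 13.9 to 1230 ± 141.8 CPM (SD, n = 3) in WT (log2 fold change 2.21, adjusted p = 3e-06) and by 2.31 (adjusted p = 1.5e-06) in KO. Cd14, which hands lipopolysaccharide to Tlr4, fell after IFN, with log2 fold changes of -2.86 in WT (adjusted p = 0.000305) and -2.31 in KO (adjusted p = 0.00129). After IL4 the log2 fold change of Cd14 was -2.57 in WT (adjusted p = 0.00152) and -2.85 in KO (adjusted p = 0.000792). Cd14 stood at 213.4 to 341.4 CPM in untreated WT, 25.2 to 63.9 CPM with IFN and 31.1 to 70.4 CPM with IL4, so that its level moved opposite to that of Tlr4 after IFN. Cd36, a scavenger receptor that works with Tlr2 and Tlr6, rose after IL4 by 1.51 in WT (adjusted p = 0.000944) and 1.65 in KO (adjusted p = 0.000506), and 2 genes of this list rose and 1 fell in each genotype.

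Among 10 proteins of receptor folding and transport, 4 rose and 0 fell after IFN in each genotype. Slc15a3, an endosomal transporter, rose by 1.85 (adjusted p = 0.000236) in WT and 1.93 (adjusted p = 0.000142) in KO, and after IL4 by 1.75 (adjusted p = 0.000916) and 1.71 (adjusted p = 0.00119). Unc93b1 rose by 0.87 (SE 0.26, adjusted p = 0.0287) and 0.93 (SE 0.26, adjusted p = 0.0183). The Unc93b1 call was lost in WT without untreated library 2 (0.106) or 3 (0.111) or IFN library 4 (0.0585) or 6 (0.0951), and in KO without untreated library 3 (0.0814) or IFN library 4 (0.0578) or 5 (0.0591).

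Among the 6 TIR adaptors 3 rose and 0 fell after IFN in each genotype. Myd88 went from 98.9 ± 9.44 to 209.8 ± 38.1 CPM in WT (log2 fold change 1.09, adjusted p = 2.73e-05) and rose by 1.30 in KO (adjusted p = 3.9e-06), and Ticam2, the bridge from Tlr4 to Ticam1, rose by 1.00 (adjusted p = 0.00892) and 1.17 (adjusted p = 0.00291). After IL4 1 adaptor rose and 1 fell in WT, and 1 rose and 2 fell in KO. Sarm1, an adaptor that restrains the others, had log2 fold changes of -2.10 (adjusted p = 0.000819) and -1.68 (adjusted p = 0.00382), at no more than 1.91 CPM in any group mean. Of 18 kinases and ubiquitin ligases 2 rose after IFN in WT, and 2 rose and 2 fell in KO, in WT the same 11.1% as among all genes, with Peli1 up by 1.79 (adjusted p = 2.2e-06) and 1.89 (adjusted p = 9.9e-07). After IL4 1 of them fell, in KO.

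Of 10 transcription factors 3 rose and 0 fell after IFN in WT, and 2 rose and 1 fell in KO. Irf7 rose by 4.79 (adjusted p = 0.000286) in WT and 5.59 (adjusted p = 8.31e-05) in KO. After IL4 1 rose and 1 fell in WT, and 1 rose and 3 fell in KO, with Relb, a subunit of NF-kB, at -1.10 (adjusted p = 0.0134) and -1.29 (adjusted p = 0.0046); the WT call of Relb was lost without IL4 library 7 (0.0586) or 8 (0.0748). Of 14 inhibitors 3 rose and 2 fell in WT and 3 rose and 3 fell in KO after IFN, where 11.1% and 7.55% of all genes did in WT and 12.6% and 8.93% in KO, and 2 rose and 2 fell in WT and 2 rose and 3 fell in KO after IL4. Socs1, a brake on cytokine and receptor signals, rose from 1.57 ± 0.54 to 250.5 ± 87.5 CPM with IFN (adjusted p = 1.15e-07) and to 52.9 ± 24.0 CPM with IL4 (adjusted p = 1.72e-05) in WT, and in KO from 1.94 ± 0.32 to 300.4 ± 22.1 CPM (adjusted p = 9.28e-08) and 63.7 ± 34.5 CPM (adjusted p = 1.68e-05).

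Transcripts that receptor signals are known to induce were read last, 13 of 18 tested. After IFN 6 rose and 1 fell in WT, and 5 rose and 2 fell in KO. After IL4 0 rose and 3 fell in WT, and 1 rose and 3 fell in KO. Tnf, a cytokine made on receptor signals, rose with IFN from 29.9 ± 1.53 to 114.0 ± 12.7 CPM in WT (adjusted p = 3e-05) and fell with IL4 to 9.80 ± 2.34 CPM (adjusted p = 0.000701). In KO its fall with IL4 was from 47.7 ± 14.7 to 12.02 ± 3.06 CPM (adjusted p = 0.000124). Acod1, the enzyme that makes itaconate, rose with IFN by 6.34 (adjusted p = 8.21e-06) in WT and 6.28 (adjusted p = 6.82e-06) in KO, and Ptgs2, the inducible cyclooxygenase, by 3.80 (adjusted p = 4.22e-05) and 3.78 (adjusted p = 3.5e-05).

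**Figure D5:**
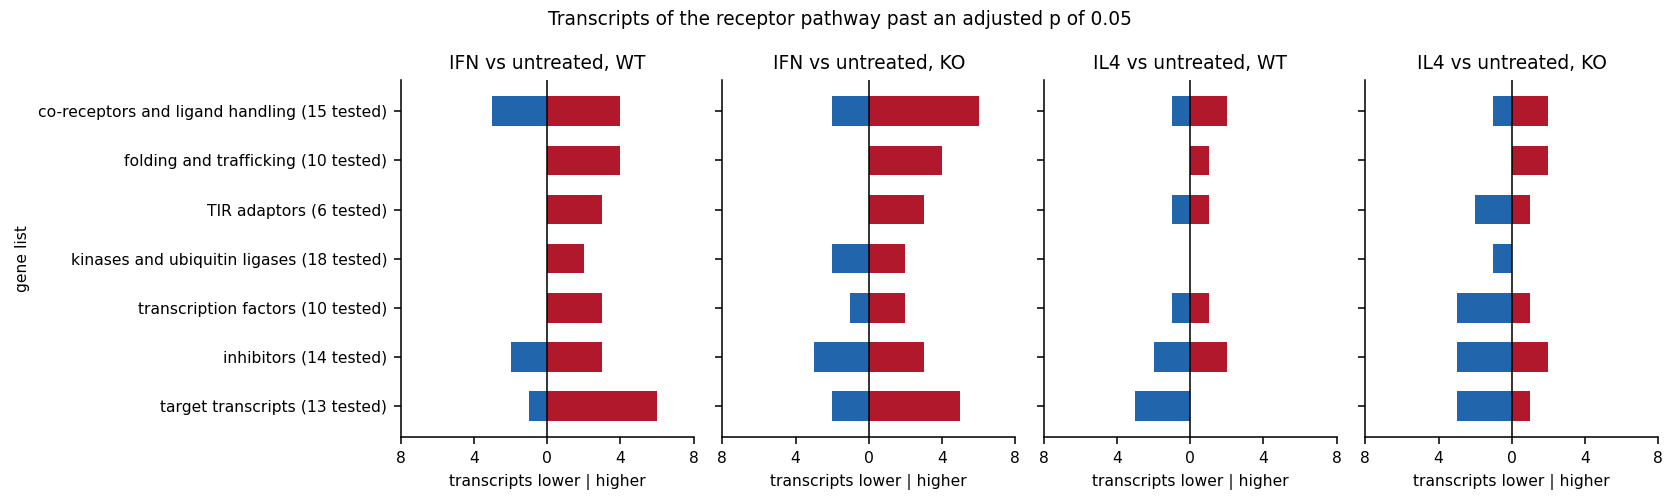
Number of transcripts in each of 7 lists that passed an adjusted p of 0.05 (x axis, lower to the left in blue and higher to the right in red) in the 4 cytokine comparisons; the number tested stands beside each list. Folding and trafficking has 4 higher and 0 lower after IFN in both genotypes, and the target transcripts have 0 higher and 3 lower after IL4 in WT.

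For each receptor the transcript whose log2 CPM was most alike over the 18 libraries was taken by Pearson's r, given as a description since the points fall in the 6 groups and share their libraries. It was Trim30a for Tlr3 (0.994), Slfn8 for Tlr9 (0.986), Prr5l for Tlr11 (0.985), Slamf7 for Tlr1 (0.965), Pik3ap1 for Tlr13 (0.96), Mycl for Tlr2 (0.953), Clcn7 for Tlr6 (0.953) and Ints9 for Tlr4 (0.924). The closest to Tlr7 and Tlr8 were further off, Ugt1a6b at 0.883 and Fem1c at 0.88. Trim30a stood at 73.7 to 112.3 CPM in untreated WT, 239.2 to 479.4 CPM with IFN and 39.1 to 54.2 CPM with IL4, the same order of treatments as Tlr3.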

How the data were processed

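Poly-A RNA was sequenced from 18 libraries. The authors deposited expected counts and TPM per gene from RSEM, per the file headers; Bowtie 0.12.8, RSEM 1.2.3 and mm10 are named in the submitters' processing notes, and the strand setting is not given in the sources used here. A median-normalized column was not used. Of the expected counts 21.5% were not whole, and all were rounded. Groups follow the labels. Columns of values without a sample numbered 0.

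The 9 comparisons were fitted with edgeR 4.0.16 in R 4.3.3: filterByExpr left 12514 of 21954 genes, then TMM and the robust quasi-likelihood fit on 18 libraries with 1 coefficient per group (12 residual degrees of freedom, biological coefficient of variation 0.301). P-values were adjusted by Benjamini and Hochberg over all tested genes per comparison, and a call means an adjusted p under 0.05. Each SE was obtained by dividing the log2 fold change by the root of its F statistic, and 95% intervals use it with the t quantile. Folds from 0 counts use a floor of 3 counts over the group, and those from 1 to 3 counts an exact counting interval. Alternatives used DESeq2 1.42.0 and limma 3.58.1 on log2 of TPM plus 1 or 0.1. The methods were tested on simulated data. For KO against WT in untreated cells, 11.3% of 1.5-fold, 39.4% of 2-fold and 86.6% of 4-fold changes were recovered. For IFN against untreated in WT the shares were 1.43%, 28.6% and 76.1%. For the difference of IFN responses they were 0%, 5.71% and 56%. False calls numbered 6, 1 and 1 in these comparisons. Each simulation changed few genes, starting from a mean shared by all groups. In the real IFN comparison in WT 1387 genes were called higher and 945 lower, which moves the adjusted threshold. The simulated shares therefore do not give the share recovered in that comparison.

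The members, lists and rules were chosen with earlier results of these data known. All 10 members are described; of the other lists, at most 4 called genes with the lowest p per comparison were open to naming, and a selection of these is given. Further marker lists held dividing cells (539.9 to 1707 TPM summed) and dendritic cells. Dividing cell markers were apart after IFN (1305 to 1707 TPM in WT, 696.2 to 1116 TPM in KO) and overlapped between genotypes in the other treatments. Dendritic cell markers summed to 13.7 to 53.4 TPM in untreated cells. After IFN they held 65.5 to 161.1 TPM in WT and 41.0 to 100.7 TPM in KO. After IL4 they held 306.4 to 630.0 TPM, where Itgax reached 551.8 TPM. Over the 18 libraries Batf3 reached 92.1 TPM, Clec9a 91.3 TPM and Xcr1 5.29 TPM. Flt3 stayed at or under 0.19 TPM and Itgae at or under 0.17 TPM. The part of either list in the receptor results was not tested. A motif and a marker are not reported here. Of 21954 Ensembl identifiers, 21855 were found in GENCODE vM21.

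Numbers shared by KO and WT libraries were checked as a pairing by the correlation of deviations from the group means over 12514 genes. It was 0.296, 0.135 and 0.276 in IFN and 0.586, 0.323 and 0.449 in IL4 cells. Libraries of unlike number reached at most 0.0664 in IFN and 0.126 in IL4 cells. The numbers were therefore taken to pair the libraries there, from the data and not from a label. In untreated cells it was 0.597, 0.0417 and 0.358, but WT library 2 with KO library 3 gave 0.375. The numbers were therefore not taken as pairs in untreated cells. WT untreated libraries 2 and 3 were unusually alike (chi-square per degree of freedom 5.92, other pairs 49.1 to 175.0) and were kept apart as 2 libraries.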

Additional observations from a re-analysis of the deposited data

How the results depend on the processing

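The number of receptors called held within 1.5 times of the reported one under the other normalization, test, filter, covariate and earlier edgeR fit, with these exceptions. For IL4 in KO the 4 called became 1 with only the libraries of the groups compared and 2 with limma on log2 of TPM plus 1, and 1 to 2 on leaving out each library in turn. Without the libraries numbered 3, 6 and 9, an alternative chosen after seeing the data, the counts were 4 for IFN in WT, 1 for IL4 in WT and 1 for IL4 in KO; fewer libraries were then fitted. The earlier edgeR fit, also added later, lost Tlr4 after IL4 in KO (adjusted p = 0.0515). No called receptor changed sign under any alternative. With the number as a replicate block, 0 receptors were called in each of the 3 genotype comparisons, and 96 of all genes in untreated cells, where the numbers were not taken as pairs, against 10 without it. Tlr3 after IL4 in WT (log2 fold change -0.78) was called by limma on log2 of TPM plus 1 (adjusted p = 0.0446). TPM moved the median log2 of all genes, with a pseudocount of 1, by -0.35 for IFN in KO, -0.21 for IL4 in KO, -0.12 for IL4 in WT, 0.17 for KO against WT untreated and -0.26 for the difference of IFN responses. At 0 to 41 counts per untreated or IL4 group, depth limits what can be said of Tlr11.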
